A study of Mus musculus with 12 samples.

Results

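Ptprv, Smarca1, Tro, Npr3, Lrch2, Cd80 and Samd5 were among the genes with the largest falls under diethyl maleate (DEM) in 1 or both of the cell populations studied, and they are described here as 7 of the 24318 genes in the table. They were chosen by name from genes ranked on the DEM effect, with no numeric threshold, so their DEM values are given as a description without a test. The cells were immortalized embryonic fibroblasts of mouse, of genotype MafF-/-::MafG-/-::MafK-/-, which lack all 3 small Maf genes, and their polyadenylated RNA was sequenced. Both populations compared shared that genotype. One expressed T-N2G (spelled T-NG2 in the genotype labels), a tethered Nrf2-MafG heterodimer, and the other was mock. Each received 100 µM DEM or vehicle for 12 h, which gave 4 groups of 3 libraries, T-N2G DEM, T-N2G vehicle, mock DEM and mock vehicle. The labels do not say whether the T-N2G and mock cells were clones or pools, what drives T-N2G, or whether replicates were separate cultures, so p-values measure the spread between these samples.

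DEM is an electrophile that reacts with glutathione and with cysteines of sensor proteins, among them Keap1. Nrf2 released from Keap1 pairs with a small Maf protein and raises detoxifying and antioxidant genes, a response known for induction, whereas the 7 genes here lay at the opposite end. They belong to no common family. They encode a receptor-type phosphatase, a chromatin remodelling ATPase, an adhesion protein of the MAGE family, a hormone clearance receptor, a leucine-rich repeat protein, an immune costimulatory ligand and a small SAM domain protein.

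The labelled cell type was checked first. All 10 fibroblast markers passed the filter on low counts, and their summed level was 11820 to 18965 CPM (fragments scaled to a common effective library size) over the 12 libraries. Summed leukocyte markers lay between 0.328 and 0.949 CPM, and H2-Aa and Cd3e, markers of antigen-presenting and T cells, had no fragment in any library. Summed neuronal markers lay between 43.1 and 87.8 CPM, with Map2 at up to 72.8 and Tubb3 at up to 16.3 CPM. The neuronal marker Rbfox3 had no fragment in any library. Summed epithelial markers lay between 5.46 and 26.5 CPM, with Krt14 at up to 25.5 and Cdh1 at up to 1.23 CPM. Nfe2l2, which encodes Nrf2, averaged 556 and 599 CPM in T-N2G DEM and T-N2G vehicle libraries, against 62.4 and 53.2 CPM in mock DEM and mock vehicle libraries. Hmox1, a classical Nrf2 target, averaged 6212 ± 643 CPM in T-N2G DEM and 1540 ± 395 CPM in T-N2G vehicle libraries, and 2000 ± 246 CPM in mock DEM and 997 ± 241 CPM in mock vehicle libraries (SD, n = 3 each). Nqo1 and Gclm, set beside it, averaged 101 and 273 CPM in T-N2G DEM and 15.9 and 73.8 CPM in T-N2G vehicle libraries. In mock cells they averaged 5.75 and 49.5 CPM with DEM and 3.93 and 49.4 CPM with vehicle. There neither was called with DEM (edgeR, adjusted p = 0.235 and 0.996), while Hmox1 was (adjusted p = 0.00753). In bulk RNA, fewer cells of a type and less RNA per cell cannot be told apart.

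All 7 genes passed the filter that left 12469 tested genes, and all were low to moderate in level. Per transcript length, as the deposited FPKM, Npr3 was highest in T-N2G vehicle libraries (5.12 ± 1.59 FPKM) and Lrch2 in mock vehicle libraries (4.96 ± 0.90 FPKM). The lowest vehicle means were 0.843 ± 0.554 FPKM for Ptprv in T-N2G cells and 1.501 ± 0.484 FPKM for Smarca1 in mock cells (SD, n = 3 each). In DEM libraries the 7 means ran from 0.166 FPKM for Ptprv to 1.70 FPKM for Lrch2 in T-N2G cells, and from 0.476 FPKM for Smarca1 to 1.71 FPKM for Lrch2 in mock cells. Few fragments stood behind the lowest values, with 5 fragments of Cd80, 7 of Samd5 and 10 of Ptprv in T-N2G DEM replicate 3, the shallowest library with 18863560 fragments in all.

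**Figure D1:**
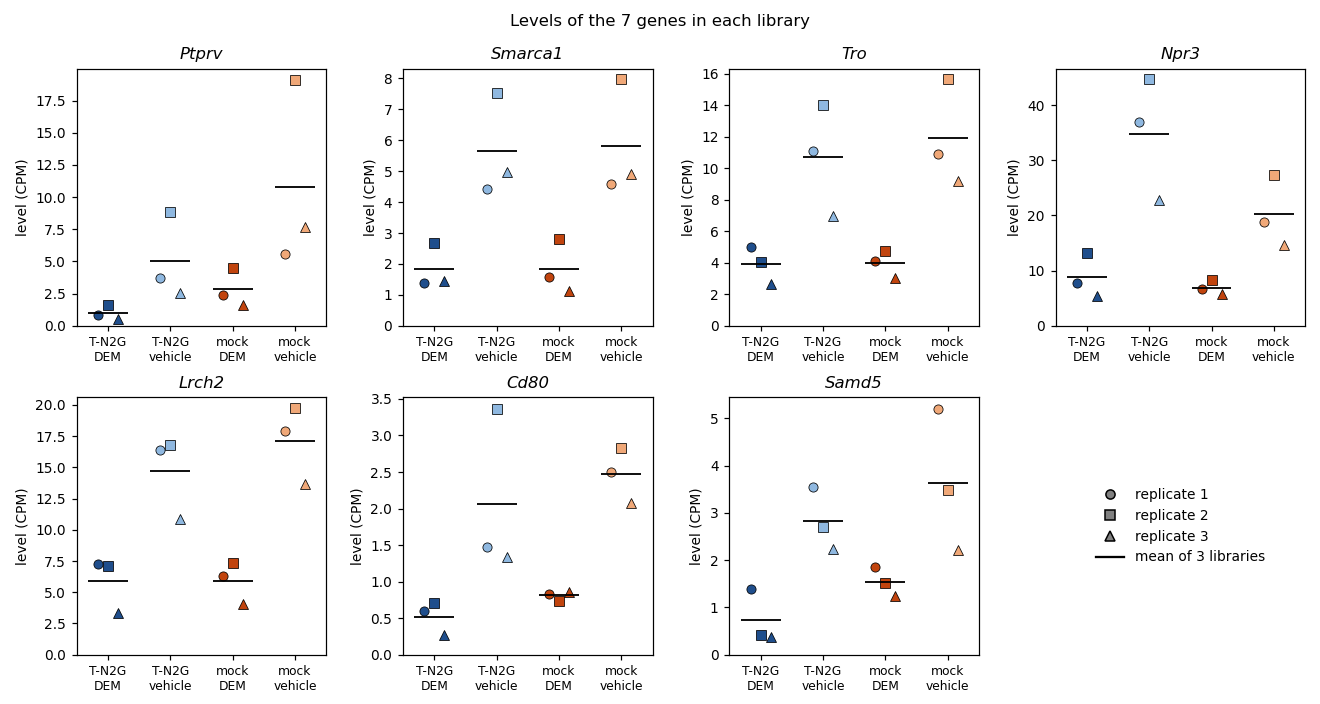
Level of each gene in CPM (linear axis from 0) in the 12 libraries, by group. Symbols mark the replicate number and the line is the mean of 3 libraries. Within each cell population every DEM library lies below every vehicle library for all 7 genes.

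For every gene the 3 DEM libraries lay below the 3 vehicle libraries without overlap, in T-N2G cells, where 15.6% of tested genes did so, and in mock cells, where 16.3% did. It follows that each of the 42 comparisons of a DEM with a vehicle library of the same replicate number was a fall. The median log2 fold change of the 7 was -1.94 in T-N2G cells and -1.59 in mock cells, beside -0.0048 and -0.012 over all tested genes. By the threshold used for other genes (edgeR, Benjamini-Hochberg adjusted p under 0.05), 7 of 7 were called lower in T-N2G cells (background 7.55%) and 6 of 7 in mock cells (background 6.18%), from which nothing is read since this contrast chose them. Genes called and at least 2-fold lower made up 1.11% of tested genes in T-N2G and 0.65% in mock cells, and the 47 in both lists were 34.1% of the T-N2G list and 58.0% of the mock list.

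**Figure D2:**
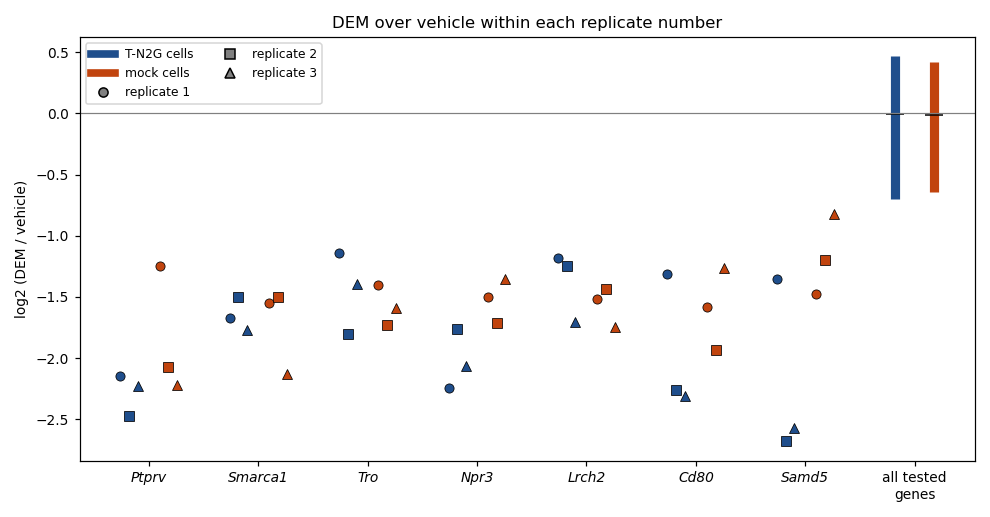
Log2 ratio of DEM over vehicle CPM within each replicate number, for T-N2G cells (blue) and mock cells (orange). Bars at the right span the 5th to 95th percentile of the fitted log2 fold changes of all tested genes with the median as a dash. All 42 points lie below those bars, whose lower ends are at -0.70 in T-N2G and -0.64 in mock cells.

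Ptprv, which encodes a receptor-type tyrosine phosphatase known in mouse from bone, testis and the p53 response, fell furthest of the 7. The RefSeq table used for gene names lists it as a transcribed pseudogene. It had 0.842, 1.59 and 0.540 CPM in T-N2G DEM replicates 1, 2 and 3, against 3.74, 8.82 and 2.53 CPM in T-N2G vehicle replicates 1, 2 and 3. In mock cells Ptprv had 2.36, 4.53 and 1.64 CPM with DEM, against 5.60, 19.1 and 7.64 CPM with vehicle. Replicate 2 was the highest library in all 4 groups, and in mock vehicle, where it stood at 19.1 CPM, the mean was 10.8 ± 7.26 CPM (SD, n = 3). The fitted fold was 4.97-fold lower with DEM in T-N2G cells (log2 -2.31 ± 0.67, SE) and 3.80-fold lower in mock cells (log2 -1.93 ± 0.56).

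Over all 12469 tested genes the fall of Ptprv ranked 11 in T-N2G cells and 17 in mock cells. The smallest falls of the genes described here were those of Lrch2 in T-N2G cells, at rank 98, and Samd5 in mock cells, at rank 95. Among genes whose higher group averaged 2 CPM or more, Ptprv ranked 1 of 11014 in T-N2G cells and 3 of 10997 in mock cells. Genes can pass that filter through their vehicle level alone, and the ranks use the contrast that chose these genes, so they are description only. Within replicate numbers the fall of Ptprv was 4.44-fold to 5.54-fold in T-N2G cells, and in mock cells it spread from 2.38-fold to 4.66-fold. Osteoblast markers, a list set beside Ptprv for its known expression in bone, summed to 83.7 to 85.0 CPM in T-N2G DEM and 101 to 115 CPM in T-N2G vehicle libraries, and to 78.5 to 83.2 CPM in mock DEM and 87.3 to 90.6 CPM in mock vehicle libraries. Nearly all of those sums came from Runx2 and Spp1, while Bglap, Sp7, Ibsp and Dmp1 were each at or below 0.108 CPM, and their part in the fall was not tested.

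Cd80, the B7 ligand through which antigen-presenting cells engage CD28 and CTLA-4 on T cells, rested on few fragments. It had 0.595, 0.702 and 0.270 CPM in T-N2G DEM libraries, from 12, 15 and 5 fragments, against 1.48, 3.37 and 1.34 CPM in T-N2G vehicle libraries. Mock cells had 0.834, 0.740 and 0.863 CPM with DEM, against 2.50, 2.83 and 2.08 CPM with vehicle. The 3 mock DEM libraries were close together (SD 0.0644 CPM), and the T-N2G vehicle libraries were spread by replicate 2. The fit gave 3.86-fold lower with DEM in T-N2G cells (log2 -1.95 ± 0.40) and 3.02-fold lower in mock cells (log2 -1.60 ± 0.37). Summed leukocyte markers were at 0.328 to 0.594 CPM in T-N2G DEM and 0.344 to 0.948 CPM in T-N2G vehicle libraries. In mock cells they were at 0.491 to 0.949 CPM with DEM and 0.350 to 0.802 CPM with vehicle. These sums overlapped the 0.270 to 0.863 CPM of Cd80 in DEM libraries and lay below its 1.34 to 3.37 CPM in vehicle libraries. Ptprc, the pan-leukocyte CD45 gene, did not exceed 0.0983 CPM, while Cd74 reached 0.777 CPM and Csf1r 0.525 CPM. Their part in the fall was not tested.

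Npr3, the clearance receptor that takes up natriuretic peptides, had 7.78, 13.2 and 5.45 CPM in T-N2G DEM libraries, against 36.9, 44.7 and 22.9 CPM in T-N2G vehicle libraries. Its levels in mock cells were 6.62, 8.32 and 5.74 CPM with DEM, against 18.7, 27.3 and 14.7 CPM with vehicle. The fall was 3.93-fold in T-N2G cells (log2 -1.98 ± 0.33) and 2.94-fold in mock cells (log2 -1.55 ± 0.34). The T-N2G vehicle mean was the highest of the 4 groups, and the DEM libraries of both populations overlapped each other.

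Samd5, a SAM domain protein of little known function, had 1.39, 0.421 and 0.378 CPM in T-N2G DEM libraries, against 3.54, 2.70 and 2.24 CPM in T-N2G vehicle libraries. Mock cells had 1.86, 1.53 and 1.25 CPM with DEM, against 5.20, 3.49 and 2.22 CPM with vehicle. T-N2G DEM replicates 2 and 3, with 9 and 7 fragments, stood below replicate 1 with 28. The fall was 3.84-fold in T-N2G cells (log2 -1.94 ± 0.45) and 2.35-fold in mock cells (log2 -1.23 ± 0.40), the smallest of the 7 there. Within replicate numbers it ran from 2.55-fold to 6.41-fold in T-N2G cells and from 1.77-fold to 2.79-fold in mock cells. Samd5 was the 1 gene of the 7 not called lower in mock cells.

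Smarca1 encodes Snf2l, a nucleosome-sliding ATPase of the ISWI family, and its group means were close in both populations. It had 1.39, 2.67 and 1.46 CPM in T-N2G DEM libraries, against 4.43, 7.54 and 4.96 CPM in T-N2G vehicle libraries. In mock cells it had 1.57, 2.82 and 1.12 CPM with DEM, against 4.60, 7.98 and 4.91 CPM with vehicle. Replicate 2 was the highest library in every group. The fall was 3.04-fold in T-N2G cells (log2 -1.61 ± 0.37) and 3.18-fold in mock cells (log2 -1.67 ± 0.37).

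Tro encodes trophinin, an adhesion protein of the MAGE family known from embryo implantation. It had 5.004, 4.03 and 2.65 CPM in T-N2G DEM libraries, against 11.1, 14.0 and 6.97 CPM in T-N2G vehicle libraries. Mock cells had 4.12, 4.72 and 3.06 CPM with DEM, against 10.9, 15.7 and 9.20 CPM with vehicle. Replicate 3 was the lowest library in all 4 groups. The fall was 2.73-fold in T-N2G cells (log2 -1.45 ± 0.30) and 3.01-fold in mock cells (log2 -1.59 ± 0.30).

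Lrch2, a protein with leucine-rich repeats and a calponin homology domain, had 7.23, 7.07 and 3.35 CPM in T-N2G DEM libraries, against 16.4, 16.8 and 10.9 CPM in T-N2G vehicle libraries. In mock cells it had 6.28, 7.31 and 4.06 CPM with DEM, against 17.9, 19.8 and 13.6 CPM with vehicle. Again replicate 3 was the lowest library in each group. The fall was 2.49-fold in T-N2G cells (log2 -1.31 ± 0.29), the smallest of the 7 there, and 2.92-fold in mock cells (log2 -1.54 ± 0.29).

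The falls of Ptprv, Npr3, Cd80 and Samd5 were larger in T-N2G than in mock cells, with the difference of the log2 DEM effects at -0.39, -0.42, -0.35 and -0.71. For Smarca1, Tro and Lrch2 it was 0.061, 0.14 and 0.23. Standard errors of these differences ran from 0.41 to 0.88, and since both DEM effects chose the genes the differences were not tested.

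The replicate number went with differences in level too, in the 7 as in other tested genes. Over the tested genes the common coefficient of variation was 0.110 without and 0.0428 with the replicate block. The counts that follow were not made over all tested genes, so they are not read as a trait of the 7. Of the 28 sets of 3 libraries (7 genes in 4 groups), replicate 2 was highest in 21, replicate 1 in 6 and replicate 3 in 1, and replicate 3 was lowest in 23. On the log2 scale replicate 2 stood 1.38 above replicate 1 for Ptprv and 0.82 above it for Smarca1, but 0.58 below it for Samd5, where the all-gene median was 0.0099. Replicate 3 was below replicate 1 for 6 of the 7, by up to 0.97 for Samd5, where the all-gene median was -0.0029. These medians are signed and do not give the usual size of a replicate difference. The labels give replicates 1 and 2 one run of library codes and replicate 3 another, and do not say what either stands for.

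The comparison least tied to the choice of genes was T-N2G with mock cells averaged over DEM and vehicle, which asks whether the tethered heterodimer goes with a different level of these genes. It would be independent of both DEM effects if DEM and vehicle libraries were equally precise on the log2 scale. The standard error of T-N2G over mock was larger with DEM than with vehicle for all 7. It was 0.69 with DEM and 0.54 with vehicle for Ptprv and, with the replicate block, 0.28 with DEM and 0.18 with vehicle for Samd5. Fewer fragments raise this fitted error, so for genes chosen for falls its direction was all but set by the choice. It does not measure whether DEM libraries varied more. Since the precision differed, the test is not wholly free of the choice, least so for these genes of few fragments. None of the 7 was called by the quasi-likelihood test of edgeR after Benjamini-Hochberg adjustment (585 tested genes, 4.69%, were called in either direction), while 3 had an unadjusted p under 0.05, and DESeq2 and limma also called 0. With the replicate number as a block, 3 of 7 were called, against 25.2% of tested genes, and these were Ptprv, Npr3 and Samd5.

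Ptprv was 2.45-fold lower in T-N2G cells on average (log2 -1.29 ± 0.44, adjusted p = 0.134), and with the block by log2 -1.31 ± 0.14, adjusted p = 3.1e-06. It was lower in all 6 pairs of a T-N2G and a mock library that shared treatment and replicate number, by 0.58 to 1.60 on the log2 scale. Npr3 was 1.49-fold higher in T-N2G cells (log2 0.57 ± 0.23, adjusted p = 0.215), and with the block log2 0.55 ± 0.08, adjusted p = 3.69e-05. It was higher in 5 of 6 pairs, and in DEM replicate 3 the pair differed by -0.073. Samd5 was 1.64-fold lower (log2 -0.71 ± 0.30, adjusted p = 0.236), and with the block log2 -0.73 ± 0.17, adjusted p = 0.00424, lower in 5 of 6 pairs.

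With replicates 1 and 2 alone and the block, the same 3 genes were called, at log2 -1.22 for Ptprv (adjusted p = 6.7e-05), 0.66 for Npr3 (adjusted p = 4.48e-05) and -0.70 for Samd5 (adjusted p = 0.0224). Without the block, leaving out T-N2G vehicle replicate 2 gave Ptprv an adjusted p of 0.0441, and leaving out T-N2G DEM replicate 1 gave Samd5 an adjusted p of 0.0486. Cd80 was lower in 5 of 6 pairs at log2 -0.44 ± 0.28 (adjusted p = 0.464, with the block 0.137). Smarca1, Tro and Lrch2 lay at log2 -0.016 ± 0.26, -0.088 ± 0.21 and -0.10 ± 0.20 and were not called in either fit.

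**Figure D3:**
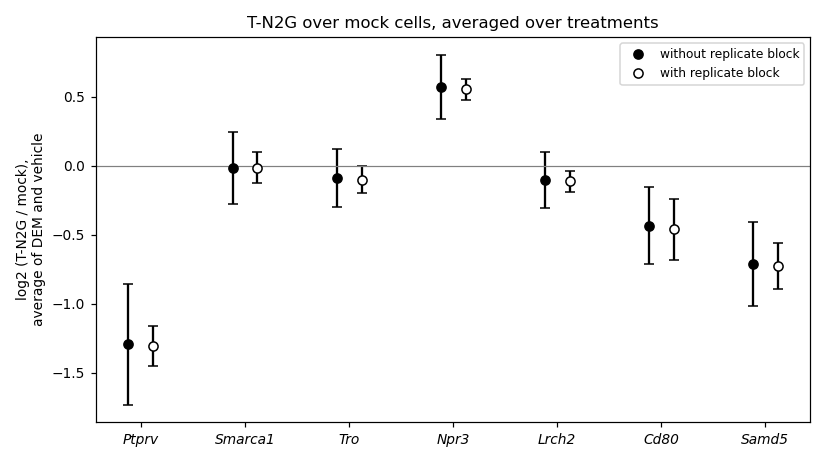
Log2 ratio of T-N2G over mock cells, averaged over DEM and vehicle, for the 7 genes with standard error bars. Filled points are without and open points with a replicate block. Ptprv, Cd80 and Samd5 lie below 0, Npr3 above it, and Smarca1, Tro and Lrch2 near it, and the bars of the blocked fit are shorter.

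Relatives and partners of each gene, taken as lists by family or pathway, were described beside it. For a background, 7.55% of tested genes were called lower and 10.1% higher with DEM in T-N2G cells, and 6.18% lower and 7.76% higher in mock cells. With the replicate block these shares were 22.2% and 22.8% in T-N2G cells and 21.9% and 20.9% in mock cells. Among the tested genes of these lists, none other than the 7 had a fall as large as that of its own member in either population. The 7 were chosen for large falls, so this was all but set by the choice and nothing is read from it.

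Of 16 receptor-type tyrosine phosphatase genes, the relatives of Ptprv, 13 were tested. In T-N2G cells 2 were called lower and 2 higher with DEM (with the block 5 and 3), and in mock cells 0 lower and 1 higher (with the block 7 and 3). The median log2 fold change was -0.094 in T-N2G and -0.20 in mock cells. Ptpru, at group means of 0.153 to 1.11 CPM, had the largest fall of these 13, log2 -1.49 ± 0.62 in T-N2G and -1.23 ± 0.43 in mock cells. It was not called (adjusted p = 0.122 and 0.0792), but was with the block (adjusted p = 0.0218 and 0.00367). Ptprb, the vascular endothelial phosphatase, averaged 67.3 CPM in T-N2G DEM and 116 CPM in T-N2G vehicle libraries (log2 -0.79 ± 0.18, adjusted p = 0.0114), and in mock cells 122 CPM with DEM and 178 CPM with vehicle (log2 -0.54 ± 0.18, adjusted p = 0.0611, with the block 3.24e-06). Ptpra, a broadly expressed phosphatase that acts on Src kinases, rose to 165 CPM with DEM against 134 CPM with vehicle in T-N2G cells (log2 0.30 ± 0.06, adjusted p = 0.00444).

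Endothelial markers, which belong beside Ptprb, summed to 5.004 to 7.78 CPM in T-N2G DEM and 10.1 to 14.5 CPM in T-N2G vehicle libraries, and to 6.43 to 11.3 CPM in mock DEM and 9.35 to 15.5 CPM in mock vehicle libraries. Kdr and Tek made up nearly all of these sums, while Cdh5 and Tie1 did not exceed 0.0955 CPM in any library and Pecam1 did not exceed 0.270 CPM. Their part in the result was not tested.

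Mouse Ptprv is a known target of p53, and 22 other p53 target genes were all tested. In T-N2G cells 10 were called lower and 2 higher with DEM (with the block 15 and 3), at a median log2 fold change of -0.44. In mock cells 7 were called lower and 2 higher (with the block 16 and 3), at a median of -0.34. Without the block the counts called lower hung on single libraries. In T-N2G cells they were 3 without DEM replicate 3, 5 without DEM replicate 1, 4 without vehicle replicate 2 and 6 without vehicle replicate 1, and in mock cells 3 or 4 without any 1 of the 3 DEM libraries or of vehicle replicates 2 and 3. Plk2, a polo-like kinase, averaged 83.5 CPM with DEM and 176 CPM with vehicle in T-N2G cells (log2 -1.08 ± 0.10, adjusted p = 6.6e-05), and 98.6 CPM with DEM and 169 CPM with vehicle in mock cells (log2 -0.78 ± 0.10, adjusted p = 0.00118). Rrm2b, the p53-inducible ribonucleotide reductase subunit, rose instead, by log2 0.62 ± 0.10 in T-N2G cells (adjusted p = 0.00159) and 0.70 ± 0.10 in mock cells (adjusted p = 0.00159).

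In the averaged comparison of T-N2G with mock cells, 4 of the 22 p53 target genes were called lower and 0 higher (with the block 15 lower and 1 higher), at a median log2 of -0.23. Among all tested genes 1.82% were called lower and 2.87% higher there, and 12.6% each way with the block. Pmaip1, a p53-induced activator of apoptosis, was lower by log2 -0.51 (adjusted p = 0.000624), beside the -1.29 of Ptprv.

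**Figure D4:**
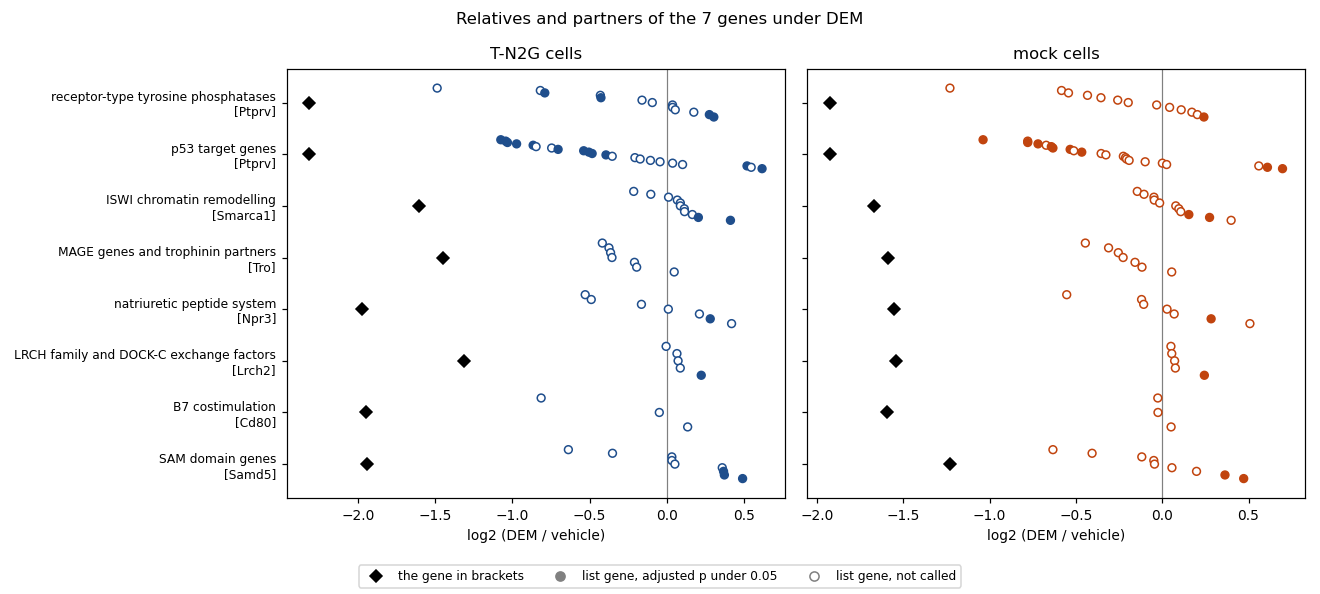
Log2 fold change of DEM over vehicle for the tested genes of each list (circles, filled where the adjusted p was under 0.05) and for the gene the list was drawn up for (diamonds), in T-N2G and mock cells. The diamonds, chosen for their falls, lie left of every circle of their list. The p53 target genes have the most filled circles below 0.

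For the ISWI complexes around Smarca1, 11 of 12 genes were tested and none was called lower with DEM in either population (with the block 2 in T-N2G and 1 in mock cells). In each population 2 were called higher (with the block 4 in T-N2G and 3 in mock cells). Without the block, leaving out single libraries gave 1 to 2 called higher in T-N2G and 0 to 3 in mock cells. Smarca5, the other ISWI ATPase of mouse, averaged 387 CPM with DEM and 358 CPM with vehicle in T-N2G cells, and 354 CPM with DEM and 335 CPM with vehicle in mock cells. Neither difference was called. Per length Smarca5 averaged 79.7 FPKM in T-N2G vehicle libraries, beside 1.45 FPKM for Smarca1 there. Bptf, the large subunit of the NURF complex, was called higher in T-N2G cells (log2 0.20 ± 0.05, adjusted p = 0.0116).

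Of the MAGE genes and trophinin partners set beside Tro, 7 of 9 were tested and 0 were called in either population, while with the block 6 were called lower in T-N2G and 5 in mock cells. Their medians were -0.36 in T-N2G and -0.23 in mock cells. Maged1, the most abundant by FPKM, averaged 507 CPM with DEM and 586 CPM with vehicle in T-N2G cells (log2 -0.21 ± 0.09, adjusted p = 0.149, with the block 0.000583).

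The natriuretic peptide system around Npr3 had 7 of 12 genes tested, with 0 called lower and 1 higher in each population (with the block 1 lower and 3 higher in T-N2G, 1 lower and 2 higher in mock cells). The ligand genes Nppa, Nppb and Nppc averaged at most 0.370 CPM in any group. Of the signalling receptors, Npr1, which binds the cardiac peptides, averaged 0.938 to 1.32 CPM over the groups, and Npr2, the receptor of C-type peptide, averaged 96.8 CPM with DEM and 83.7 CPM with vehicle in T-N2G cells (log2 0.21 ± 0.12, adjusted p = 0.235, with the block 0.0017). Furin, a protease that processes peptide precursors, was called higher in both, by log2 0.28 ± 0.07 (adjusted p = 0.0157) in T-N2G and 0.28 ± 0.07 (adjusted p = 0.0196) in mock cells. The Furin calls ended when any 1 of 2 libraries was left out in T-N2G cells, and any 1 of 3 in mock cells, where the adjusted p reached 0.0625 and 0.0702.

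Lrch2 has the paralogs Lrch1, Lrch3 and Lrch4, which with DOCK-C exchange factors gave 5 of 6 genes tested. None was called lower in either population, with or without the block. Lrch3 was called higher, by log2 0.22 ± 0.05 in T-N2G (adjusted p = 0.0107) and 0.24 ± 0.05 in mock cells (adjusted p = 0.00941), opposite in sign to Lrch2.

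Of 12 B7 ligands, their receptors and related genes set beside Cd80, 3 were tested and 0 were called in either population (with the block 1 lower and 1 higher in T-N2G cells). Cd86, the other ligand of CD28, had no fragment in any library, and Cd28 and Ctla4 averaged at most 0.0596 CPM in any group. Cd276, a B7 relative of fibroblasts and tumour cells, averaged 95.9 CPM with DEM and 87.4 CPM with vehicle in T-N2G cells (log2 0.13 ± 0.08, adjusted p = 0.298, with the block 0.0418).

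Among SAM domain genes set beside Samd5, 9 of 12 were tested. In T-N2G cells 3 were called higher and 0 lower with DEM (with the block 4 and 1), and in mock cells 2 and 0 (with the block 3 and 1). Samd4b, a relative of the translational repressor Smaug, rose by log2 0.37 ± 0.07 in T-N2G cells (adjusted p = 0.00443) and 0.36 ± 0.07 in mock cells (adjusted p = 0.00688).

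Genes that lie next to the 7 were compared as well, taking the nearest tested gene on each side in the gene order of GRCm38.p6. Of these 14 neighbours, 1 was called lower and 4 higher with DEM in T-N2G cells (with the block 5 and 5), and 1 lower and 2 higher in mock cells (with the block 4 and 3). The 1 called lower was Tmem29, on the X chromosome near Lrch2 with 54 untested genes between them, at log2 -0.55 ± 0.09 in T-N2G (adjusted p = 0.0025) and -0.76 ± 0.09 in mock cells (adjusted p = 0.00104). Adprh, which removes ADP-ribose from arginine and directly adjoins Cd80, was called higher by log2 0.32 ± 0.07 in T-N2G cells (adjusted p = 0.0101), opposite to Cd80. In mock cells Adprh was at 0.24 ± 0.07 (adjusted p = 0.0447), a call that ended when any 1 of 10 libraries was left out, where the adjusted p reached 0.157.

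**Figure D5:**
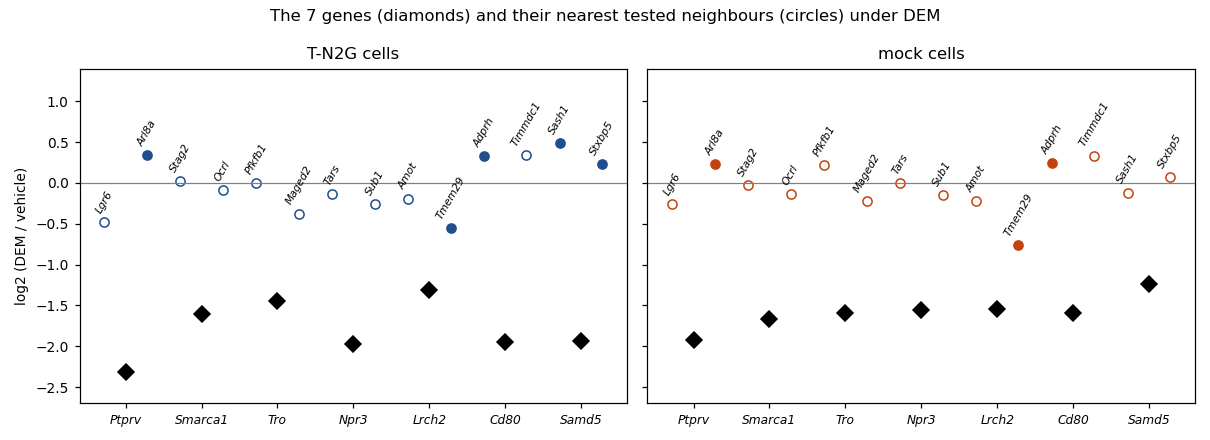
Log2 fold change of DEM over vehicle for the 7 genes (diamonds) and the nearest tested gene on each side (circles, filled where the adjusted p was under 0.05), in T-N2G and mock cells. Each diamond, chosen for its fall, lies below both of its neighbours. Tmem29 beside Lrch2 is the 1 filled circle below 0 in each panel.

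By the same assembly Ptprv is on chromosome 1, Npr3 on 15, Cd80 on 16 and Samd5 on 10, while Smarca1, Tro and Lrch2 are all on the X chromosome, which held 3.44% of the tested genes that matched it (428 of 12429). Of the 428, which include these 3, 40 were called lower (9.35%, against 7.55% of all tested genes) and 23 higher (5.37%, against 10.1%) with DEM in T-N2G cells. In mock cells 47 were called lower (10.98%, against 6.18%) and 13 higher (3.04%, against 7.76%). With the block 129 were called lower and 65 higher in T-N2G cells (30.1% and 15.2%), and 136 lower and 58 higher in mock cells (31.8% and 13.6%). Their median log2 fold change was -0.060 in T-N2G and -0.087 in mock cells.

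The sequence before the transcription start was read for the members in the RefSeq promoter table (GRCm38.p6), which held 5 of the 7 genes with 6 promoters and none for Ptprv and Tro. Shown are the 250 bases before the start of Smarca1, Cd80 and Samd5, as examples with different motifs among genes that all fell. Cd80 shares none with Smarca1 or Samd5, which share the GC box. Each is written 5′ to 3′ on the strand of the gene, and capitals mark a motif found by exact search on both strands.
Smarca1 (chrX:47892614-47892863, minus strand): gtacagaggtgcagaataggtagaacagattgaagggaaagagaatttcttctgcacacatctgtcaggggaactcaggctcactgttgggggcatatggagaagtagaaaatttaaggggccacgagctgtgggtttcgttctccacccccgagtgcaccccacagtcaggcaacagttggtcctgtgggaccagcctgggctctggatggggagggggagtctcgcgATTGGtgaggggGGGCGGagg
Cd80 (chr16:38458683-38458932, plus strand): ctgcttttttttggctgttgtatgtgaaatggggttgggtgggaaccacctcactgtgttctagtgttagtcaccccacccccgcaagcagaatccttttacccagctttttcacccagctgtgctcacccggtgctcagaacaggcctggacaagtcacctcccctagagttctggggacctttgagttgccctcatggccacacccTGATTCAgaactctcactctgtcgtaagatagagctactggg
Samd5 (chr10:9675209-9675458, minus strand): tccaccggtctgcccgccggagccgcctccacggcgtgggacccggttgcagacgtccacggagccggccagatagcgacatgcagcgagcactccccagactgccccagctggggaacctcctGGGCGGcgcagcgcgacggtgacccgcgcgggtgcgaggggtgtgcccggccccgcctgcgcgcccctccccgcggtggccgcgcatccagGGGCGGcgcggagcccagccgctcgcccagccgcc

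The capitals in Smarca1 are a CCAAT box read on the other strand, 21 bases before the start, and a GC box (GGGCGG) 9 bases before it. In Cd80 they are an AP-1 motif (TGANTCA) 42 bases before the start, and in Samd5 they are 2 GC boxes at 126 and 35 bases before it. Over the full 300 bases, which run 50 past the start, Samd5 held 43 CpG dinucleotides, Smarca1 9 and Cd80 3, beside a median of 7 over the 32851 promoters in the table. Npr3 held 6 CpG and a CCAAT box 64 bases before the start, and the 2 promoters of Lrch2 held 18 and 19.

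The core of the antioxidant response element (TGACNNNGC), to which Nrf2 with a small Maf protein binds, was in 0 of the 6 promoters, in 14.4% of the 12100 promoters of tested genes and in 12.4% of all promoters of that length. It can overlap an AP-1 motif, which was in 1 of the 6, in 4.83% of those of tested genes and in 7.81% of all. GC boxes were in 2 of 6, against 63.5% of those of tested genes and 35.7% of all. CCAAT boxes were in 3 of 6, against 37.9% and 37.4%, and a TATAAA motif was in 1 of 6, past the start of Cd80, against 6.82% and 13.6%. The E-box (CACGTG) was in 0 of 6, against 9.97% and 7.15%, and the CRE (TGACGTCA) in 0 of 6, against 3.14% and 1.79%. A match is a match of letters in this window and says nothing on binding.

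The genes whose levels ran most like each member over the 12 libraries were named as a description, among 10890 tested genes with a mean of at least 2 CPM. The measure was Pearson's r of log2 CPM over 12 libraries that share treatment and replicate number, so these genes were chosen for the same differences and are given without a test. For Ptprv they were 5730455P16Rik and Eda2r, both at r = 0.986. Eda2r, a receptor of ectodysplasin A2 and a p53 target, had a log2 fold change with DEM of -1.04 in both populations. That of 5730455P16Rik was -0.29 in T-N2G and -0.27 in mock cells, since r measures the pattern and not the size of a change. For Smarca1 they were Igf1, the growth factor (r = 0.983), and Lipg, endothelial lipase (r = 0.981), with log2 -1.35 and -1.07 in T-N2G cells and -1.07 and -1.15 in mock cells.

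Tro and Lrch2, both on the X chromosome, were each other's nearest gene at r = 0.981, followed by Zcchc8 for Tro (r = 0.974) and Traf3ip1 for Lrch2 (r = 0.981). For Npr3 they were Gpx1, a glutathione peroxidase (r = 0.972), and Atxn10 (r = 0.970). For Cd80 they were Tube1, a centriolar tubulin (r = 0.981), and Tk1, the thymidine kinase of S phase (r = 0.978). For Samd5 they were 4930429B21Rik and the chloride channel gene Ano1, both at r = 0.957. These 2 had log2 fold changes with DEM of -0.81 and -0.80 in T-N2G and -0.63 and -0.43 in mock cells. For Zcchc8, Traf3ip1, Gpx1, Atxn10, Tube1 and Tk1 they ran from -0.43 (Gpx1) to -0.28 (Traf3ip1) in T-N2G cells. In mock cells these ran from -0.36 (Gpx1) to -0.27 (Traf3ip1). Among the 7 themselves r ran from 0.643 between Npr3 and Samd5 to 0.981 between Tro and Lrch2.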

How the data were processed

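Polyadenylated RNA of 12 libraries was measured, with RNeasy Mini extraction and the SureSelect strand-specific kit per the labels' protocols. The submitters' processing notes name bcl2fastq 2.16.0.10, TopHat2 2.0.8b, Cuffdiff 2.1.1 and mm9, with no roles; the strand setting and annotation are not given in the sources used here. The authors deposited an estimated count of fragments per gene and library, not scaled between libraries per the file headers, of which 98.3% were whole (tolerance 0). The authors also deposited FPKM, scaled by transcript length and library size. The 2 other value columns per library were not used. A FAIL status stood in 37 values of 17 genes, none a member. Libraries totalled 18863560 to 23095692 fragments, with 14817 to 15141 genes detected.

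Counts were rounded and fitted across all 12 libraries with a coefficient per group in edgeR 4.0.16 under R 4.3.3 (TMM, filterByExpr at a minimum count of 10 and total of 15, quasi-likelihood test, Benjamini-Hochberg over 12469 genes, called under 0.05), which took out 11849 genes. The fit without a replicate block was tested on simulated counts with known changes. These had a common spread for all genes and no replicate effect, unlike the data, so they do not test the fit with the block. Alternatives were RLE size factors, no filter, DESeq2 1.42.0, limma 3.58.1 on log2(FPKM + 1) and log2(FPKM + 0.1), each library left out, replicate 3 left out, and a replicate block. The block with replicates 1 and 2 alone was added after seeing the data.

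The members and lists were chosen with earlier results of these data known. The naming rule gave, per list and DEM contrast, the called genes of lowest adjusted p, up to 3 and not all of 1 direction where both occurred, and otherwise the most abundant by FPKM, not all printed, and per member the 2 genes of highest r and the nearest tested gene on each side. Ptprb in mock cells, Smarca5, Npr1, Npr2, the ligands, Cd86, Cd28 and Ctla4 were added by role, and Ptpru for its fall, after their values were seen.

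Replicate numbers come from the sample titles. Deviations of log2 CPM from group means had r of 0.361 to 0.631 in 18 pairs with the same number and -0.422 to -0.00363 in 36 others, so the numbers pair the samples. The coefficient of variation was 0.110, and 0.0428 with the block.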

Additional observations from a re-analysis of the deposited data

Results flagged for a closer look

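Sash1, a SAM domain adaptor gene beside Samd5 in the gene order, had DEM effects of opposite sign in the 2 cell populations in every pair. The log2 ratio of DEM over vehicle was 0.40 to 0.60 in the 3 T-N2G pairs and -0.25 to -0.03 in the 3 mock pairs. The T-N2G effect minus the mock effect was 0.61 ± 0.18 on the log2 scale (SE, n = 3 libraries per group), with an adjusted p of 0.470 by edgeR and 0.000526 with the replicate block. The mock effect alone was not called (log2 -0.12 ± 0.13, adjusted p = 0.570 by edgeR, with the block 0.147), so a fall in mock cells is not shown. Sash1 was found by searching the named genes for this pattern, and its share over all tested genes was not computed. Its level averaged 63.7 CPM with DEM and 45.3 CPM with vehicle in T-N2G cells, and 36.8 CPM with DEM and 39.9 CPM with vehicle in mock cells. Samd5 itself fell in all 6 pairs.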

How the results depend on the processing

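All fitted DEM effects of the 7 genes stayed below 0 under every alternative run, and 244 of 280 values moved by less than the spread between replicates. On log2(FPKM + 1) they shrank to between -1.41 and -0.60. With the replicate block, by which the numbers pair the libraries, genes called lower and higher were 2769 and 2846 with DEM in T-N2G cells, 2736 and 2603 in mock cells, and 1568 and 1576 for T-N2G over mock, with 3 members called. With the block and replicates 1 and 2 alone they were 2351 and 2267, 2295 and 2087, and 921 and 948, again with 3 members. DESeq2 called 368 lower for T-N2G over mock. Without the block, leaving out libraries gave 177 to 979 lower and 268 to 1197 higher in T-N2G cells, 68 to 773 and 55 to 1019 in mock cells, and 32 to 275 and 118 to 348 for T-N2G over mock, with 0 to 1 member called. The low end in each case was without replicate 3, which leaves 2 libraries per group.

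Signs of uncalled values near 0 turned when single libraries were left out. T-N2G over mock then ran from -0.21 to 0.21 for Smarca1, -0.21 to 0.030 for Tro and -0.21 to 0.034 for Lrch2. The DEM effect ran from -0.088 to 0.052 for Cd276, -0.45 to 0.13 for Lgr6, -0.095 to 0.061 for Stag2, -0.062 to 0.065 for Tars and -0.25 to 0.0028 for Sash1 in mock cells, and from -0.031 to 0.059 for Stag2 and -0.053 to 0.048 for Pfkfb1 in T-N2G cells. Of 1700 values of single tested genes, 171 lost their call and 51 gained one, and 114 of 640 counts of list genes moved by over 1.5 times. The cause was not tested. Counts of 5 to 34 fragments limit Cd80, Samd5 and Ptprv in T-N2G DEM libraries.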
